A study of Mus musculus with 2 samples.

Results

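The chloride cotransporters and the kinases that control them were followed in newborn mouse neural tissue as 9 genes. The members were Slc12a2 (the importer NKCC1), Slc12a4, Slc12a5 and Slc12a7 (the exporters KCC1, KCC2 and KCC4), Slc12a9 (an orphan of the same family), the kinases Wnk1 and Wnk3, and their downstream kinases Stk39 (SPAK) and Oxsr1 (OSR1). They were found by matching gene IDs, without their version, to mouse symbols, which gave 9 of the 43346 gene rows. Total RNA above 200 bases, 10 ng per library, was sequenced from the neural tube of 2 pups of the strain B6NCrl at postnatal day 0, 1 whole tube per pup. Both pups were born to 1 mother, their sex was not collected, and no treatment or genotype is named. The series is therefore 1 group with n = 2 and holds no contrast between conditions. Any difference between the pups rests on 1 library each, and no p-value was computed.

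Cation chloride cotransporters carry chloride together with sodium or potassium across the cell membrane without using ATP. In neurons, NKCC1 raises chloride inside the cell and KCC2 lowers it, and the balance of the pair sets whether GABA and glycine depolarise or hyperpolarise the cell. Immature neurons are known for high NKCC1 activity and low KCC2 activity, with KCC2 rising as spinal and brainstem neurons mature. WNK kinases, which sense chloride, phosphorylate and activate SPAK and OSR1. These in turn phosphorylate the cotransporters, which activates NKCC1 and inhibits the KCC exporters.

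Depth, taken as the sum of estimated read counts over gene rows, was 26916916 for pup 1 and 40003518 for pup 2, a ratio of 1.49. A count of 0 would allow up to 0.111 and 0.075 CPM (counts scaled to library totals), a limit that covers counting error only. Markers of the labelled tissue were present: 5 neuron genes summed to 1835 and 1592 TPM (a relative abundance scaled by transcript length), and 5 astrocyte and radial glia genes to 2823 and 2689. Sums for markers of other cell types were lower, from 4.25 and 2.69 TPM for 3 choroid plexus genes to 1666 and 1289 for 3 red cell genes. The lists differ in size, so the sums do not rank the cell types. By median gene, red cell markers stood at 621 TPM, above neuron markers at 143 and astrocyte and radial glia markers at 168. None of the 45 marker genes was at 0 in both libraries.

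All 9 members were detected, meaning that TPM reached 1 in each of the libraries. By the same rule 35.5% of all gene rows and 63.8% of protein-coding genes were detected. Slc12a5 was the highest member at 59.4 ± 3.13 TPM (SD, n = 2 pups), and Slc12a7 the lowest at 3.03 ± 0.240. Among the 13698 detected protein-coding genes, ranked by mean TPM, Slc12a5 stood in the upper 20.4%, while Slc12a2 ranked at 76.1% and Slc12a7 at 88.5% from the top. In descending order of TPM the members were Slc12a5, Stk39, Wnk1, Slc12a9, Slc12a4, Oxsr1, Wnk3, Slc12a2 and Slc12a7. Stk39 and Wnk1 were the neighbours whose pup values overlapped. The deposited TPM intervals express the uncertainty of each estimate within its library. They cover more than the division of reads among transcripts, since Slc12a2, with a single quantified model, has one of 4.86 to 5.71 in pup 1. These intervals overlapped for Stk39 and Wnk1 in both pups and for Slc12a4 and Oxsr1 in pup 1. In pup 2 they overlapped for Oxsr1 and Wnk3 and for Wnk3 and Slc12a2. In bulk tissue, fewer cells of a type and less RNA per cell cannot be told apart.

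**Figure D1:**
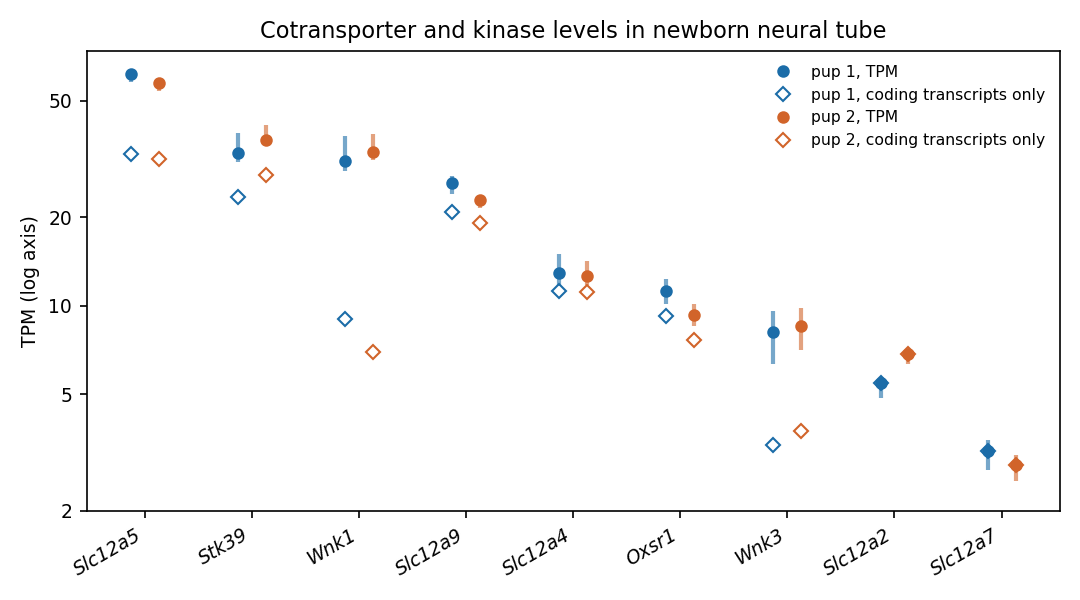
Level of each member in TPM (log axis) in pup 1 (blue) and pup 2 (orange), with the deposited TPM interval as a vertical bar and the TPM of protein-coding transcripts as open diamonds. Slc12a5 led in both pups at 61.7 and 57.2 TPM, and the protein-coding transcripts of Wnk1 made the smallest share of a member's total level, with 75.2% of its TPM outside them.

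Slc12a2, the sodium, potassium and chloride importer, lies on chromosome 18 (57878678 to 57946821, plus strand, GRCm38). It stood at 5.45 TPM in pup 1 (deposited interval 4.86 to 5.71) and 6.86 TPM in pup 2 (6.33 to 7.10), from 604 and 1170 expected counts. Its intervals did not overlap, and pup 2 was the higher. A single coding transcript, Slc12a2-201, was quantified for this gene, so its whole level is the level of that transcript.

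Slc12a5, the neuronal potassium and chloride exporter, lies on chromosome 2 (164960802 to 164999731, plus strand). It stood at 61.7 TPM in pup 1 (58.0 to 62.9) and 57.2 in pup 2 (54.1 to 58.2), from 4728 and 6798 counts, and the intervals overlapped. Slc12a4, the housekeeping exporter KCC1 (chromosome 8, 105943590 to 105966097, minus strand), was at 12.97 and 12.66 TPM. Slc12a7, the exporter KCC4 known from kidney and inner ear (chromosome 13, 73733094 to 73816754, plus strand), was at 3.20 and 2.86. For both genes the pups' intervals overlapped. The 3 exporters summed to 75.3 ± 3.59 TPM, of which Slc12a5 made 79.2% and 78.7%, Slc12a4 16.7% and 17.4%, and Slc12a7 4.11% and 3.93%. Slc12a5 was 4.75 and 4.52 times Slc12a4, and 19.3 and 20.0 times Slc12a7. Of the exonic bases of Slc12a4, 8.44% are shared with the antisense gene Gm16156, which was at 0 and 0.23 TPM.

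Slc12a5 makes KCC2a and KCC2b from separate first exons, which give the protein different starts. The coding part of exon 1a is shown because that exon is what marks the a form. It is chr2:164960883-164961003 on the plus strand of GRCm38, with the start codon in capitals:
KCC2a exon 1a: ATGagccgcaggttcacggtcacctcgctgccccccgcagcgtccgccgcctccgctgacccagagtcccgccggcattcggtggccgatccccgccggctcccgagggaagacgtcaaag
The b form was counted through Slc12a5-201, its one complete coding model in the deposited tables. Of the TPM of the gene, Slc12a5-201 held 53.1% and 55.2% (32.8 and 31.6 TPM, with 3349 and 4974 counts). Exon 1a was carried by a single quantified model, Slc12a5-202, a non-coding transcript of 4 exons and 462 bases with an extra second exon of 86 bases. It received 0 counts in pup 1 and 16.0 in pup 2, a share of 0% and 2.90%. Taking the a and b models alone, the a form made 0% and 4.99% of their TPM. The full-length a forms of the later GENCODE M21 annotation, Slc12a5-207 and Slc12a5-209, were not among the quantified models, and neither were 4 other transcripts of the gene. KCC2a could therefore be counted only through Slc12a5-202, and these shares do not measure complete KCC2a transcripts. Reads from exons that both forms share could fall on Slc12a5-201.

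The rest of Slc12a5 lay almost wholly on Slc12a5-205, a retained intron model of 2 exons at the 3′ end of the gene. This model held 44.0% and 40.7% of the gene's TPM (27.2 and 23.3) but 28.8% and 26.4% of its counts, since its 3001 bases are fewer than the 6024 of Slc12a5-201. Of the 3001 bases, 83.2% are shared with other quantified models, so how these reads were divided rests on the authors' estimation. Slc12a5-201 alone stood at 32.2 ± 0.834 TPM, which was still the highest coding level among the 9 members. That value is not a measure of the b form only, because reads of the a form from shared exons could fall on this model.

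Each first exon has its own promoter, and the E-box CACGTG, the site bound by the factors USF1 and USF2, is known from the KCC2b promoter. The 250 bases before each RefSeq start (GRCm38.p6, plus strand) are shown to set the pair side by side, with any E-box in capitals. The a window is chr2:164960596-164960845 and the b window chr2:164967738-164967987:
KCC2a promoter: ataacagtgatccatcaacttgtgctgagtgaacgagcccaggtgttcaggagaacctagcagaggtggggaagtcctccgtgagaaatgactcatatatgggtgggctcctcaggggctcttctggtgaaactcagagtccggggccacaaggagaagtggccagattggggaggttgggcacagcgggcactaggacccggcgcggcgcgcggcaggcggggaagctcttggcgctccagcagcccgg
KCC2b promoter: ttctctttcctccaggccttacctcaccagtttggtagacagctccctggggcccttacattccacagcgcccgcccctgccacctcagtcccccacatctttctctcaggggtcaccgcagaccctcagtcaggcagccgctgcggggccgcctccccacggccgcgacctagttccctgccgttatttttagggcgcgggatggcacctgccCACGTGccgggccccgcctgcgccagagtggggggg
The b window held 1 E-box and the a window 0. The motif is its own reverse complement, so a search of one strand covers both. Of 32817 RefSeq promoter windows of this length, 6.02% held it, as did 3 of the 10 windows of the 8 members with an entry (also 1 of Slc12a9 and 1 of Slc12a7). G and C made 61.2% of the a window and 67.2% of the b window, against a median of 52.4% over all windows. A match describes the letters only, and binding was not measured. Usf1 was at 98.7 and 93.9 TPM and Usf2, named here after its values were seen, at 29.4 and 25.4.

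Within each library, RNA of the importer was far below RNA of the neuronal exporter. Both are levels of whole tissue, and transporter protein and activity were not measured. The ratio of Slc12a2 to Slc12a5 in TPM was 0.0884 in pup 1 and 0.120 in pup 2, so the exporter stood at 11.3 and 8.34 times the importer. Against the 3 exporters together, the ratio was 0.0700 and 0.0943 (0.0822 ± 0.0172). Slc12a2 was also below Slc12a4, at 0.420 and 0.542 of its level, and above Slc12a7, at 1.70 and 2.40 times. Every one of these importer ratios was higher in pup 2, but all share the level of Slc12a2 and are not separate observations.

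The size of the ratio depended on which transcripts were counted. Restricted to protein-coding transcripts, Slc12a2 over Slc12a5 was 0.166 and 0.217 (0.192 ± 0.0360). This restriction leaves out the 3′ model of Slc12a5, while the single model of Slc12a2 keeps all of its reads, so it can lower the exporter but not the importer. Expected counts divided by the length of the longest complete coding transcript gave 0.118 and 0.159. Undivided counts gave 0.128 (95% exact binomial interval 0.117 to 0.139) and 0.172 (0.162 to 0.183), and these intervals, which cover counting error only, did not overlap. By every measure tried the importer stayed at or below 0.217 of the exporter and pup 2 was the higher.

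**Figure D2:**
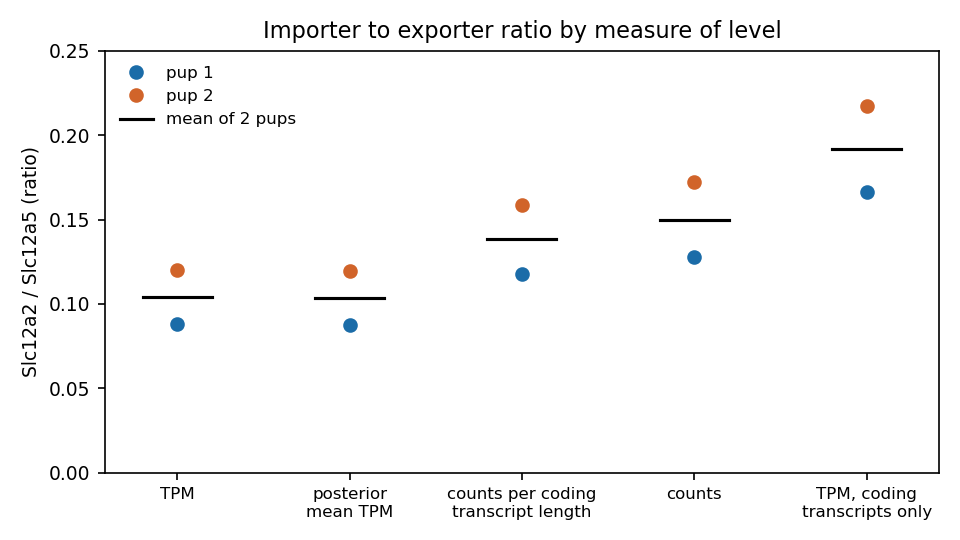
Ratio of Slc12a2 to Slc12a5 (linear axis from 0) in pup 1 and pup 2 under 5 measures of level, with the mean of the 2 pups as a line. The mean ran from 0.104 for TPM over all transcripts to 0.192 for protein-coding transcripts, and pup 2 was above pup 1 under each measure.

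Slc12a9, a family member with no settled transport role, lies on chromosome 5 (137314558 to 137333597, minus strand). It was at 26.1 TPM in pup 1 (23.93 to 27.6) and 22.9 in pup 2 (21.6 to 23.92), so its intervals were apart by a narrow margin and pup 1 was the higher. It stood above Slc12a4 and Slc12a7 in both pups, and Slc12a2 was at 0.209 and 0.299 of its level. The coding transcript Slc12a9-201 held 76.5% and 83.3% of its TPM and the retained intron model Slc12a9-203 19.9% and 16.3%. For Slc12a4, the coding transcript Slc12a4-202 held 81.2% and 78.3%. Slc12a7 had 1 quantified model, Slc12a7-201, whereas the M21 annotation lists 11.

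Of the WNK kinases, Wnk1 was the higher member. Wnk1 (chromosome 6, 119923969 to 120038672, minus strand) was at 31.1 TPM (28.8 to 38.0) and 33.4 (31.3 to 38.4), from 2072 and 3334 counts. Wnk3, an X-linked WNK kinase of the brain (151198078 to 151320152, plus strand), was at 8.11 (6.31 to 9.60) and 8.52 (7.05 to 9.84), from 541 and 831 counts. The ratio of Wnk1 to Wnk3 was 3.84 and 3.92, and 2.70 and 1.86 when protein-coding transcripts alone were counted. In both genes the larger part of the TPM lay outside protein-coding transcripts, 75.2% for Wnk1 and 57.4% for Wnk3. By counts this held for Wnk1, at 51.7% and 59.9%, but not for Wnk3, at 44.2% and 37.8%. The median of the TPM share over 9946 detected protein-coding genes with several transcripts was 7.65%, and 3.63% of them were at or above Wnk1 and 8.87% at or above Wnk3.

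Wnk1 is known for forms that differ by tissue: a full-length kinase, a nervous system form that includes the HSN2 exon, and a kidney-specific form that starts at exon 4a and lacks the kinase domain. Sequences around the exon joins are shown because the joins define the quantified forms. All are on the minus strand of GRCm38, and the capitals mark the bases after the join:
Wnk1-202, exon 3 to exon 4: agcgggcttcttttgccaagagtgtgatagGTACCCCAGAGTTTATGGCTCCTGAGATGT
Wnk1-217, exon 3 to exon 5: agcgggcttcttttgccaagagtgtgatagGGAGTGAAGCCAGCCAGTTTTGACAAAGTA
Wnk1-201, exon 4a to exon 5: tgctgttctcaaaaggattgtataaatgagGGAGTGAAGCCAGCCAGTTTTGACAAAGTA
The 60 bases at the 5′ end of the HSN2 exon (chr6:119963573-119963632) in Wnk1-203 are:
HSN2 exon: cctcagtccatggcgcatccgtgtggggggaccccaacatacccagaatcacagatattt
Exon 3 is chr6:119992340-119992560, exon 4 is chr6:119990092-119990249, exon 4a is chr6:119981118-119981448 and exon 5 is chr6:119972768-119972856. The whole HSN2 exon is chr6:119962397-119963632, 1236 bases.

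The leading Wnk1 transcript by TPM was Wnk1-217, a non-coding model of 516 bases that skips the 158-base exon 4. It held 28.7% and 31.05% of the gene's TPM (8.92 and 10.4 TPM). Its counts were 64.2 and 115, or 3.10% and 3.45% of the gene, and all of its bases occur in other quantified models. Reads across its join of exon 3 to exon 5 were not counted here. The 6 retained intron models together held 42.2% and 47.0% of the TPM and 48.6% and 56.3% of the counts. Among these, Wnk1-206 held 26.2% and 29.8% of the TPM and Wnk1-208 13.3% and 14.8%.

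The 4 long coding forms of Wnk1 (Wnk1-202, Wnk1-203, Wnk1-204 and Wnk1-223) summed to 5.1 and 4.44 TPM, and held 45.6% and 38.3% of the counts. Those with the HSN2 exon stood at 2.48 and 2.30 TPM and those without it at 2.62 and 2.14, by the exons of the M21 annotation. On that basis HSN2 forms made 48.6% and 51.8% of the long coding TPM. The quantified Wnk1-204 was 1646 bases longer than its M21 model, a gap wider than the HSN2 exon, so whether it held that exon is not known. With Wnk1-204 counted among the HSN2 forms the share was 67.3% and 58.8%. The division between single forms was loose: Wnk1-203 had deposited intervals of 0.123 to 1.30 and 0.0685 to 0.810 TPM, and Wnk1-204 had lower bounds near 0 in both pups. Wnk1-218, a single-exon model of 1426 bases that spans the HSN2 exon and sequence on both sides of it, added 2.09 and 1.60 TPM. The exon 4a start, Wnk1-201, received 0 and 5.47 counts (0 and 0.38 TPM), with 331 of its bases in no other quantified model. It is a non-coding model of 4 exons and 646 bases, and the only quantified model with exon 4a. These counts therefore do not measure complete transcripts of the kidney-specific form.

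**Figure D3:**
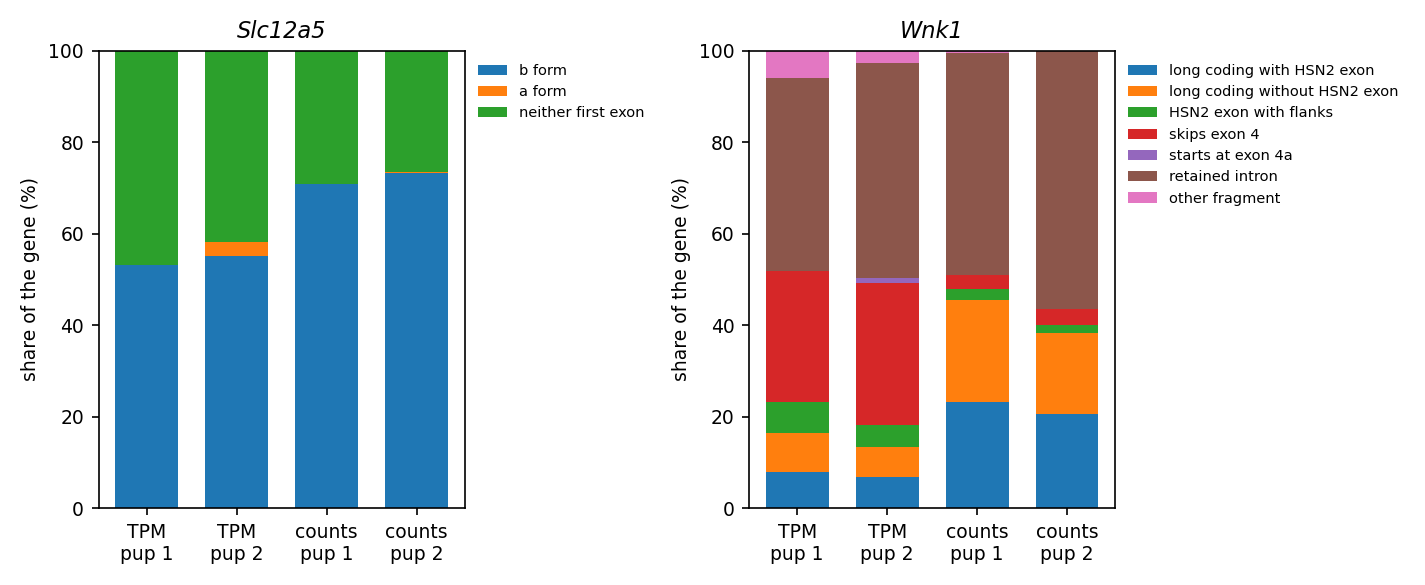
Stacked shares (%) of Slc12a5 (left) and Wnk1 (right) by group of transcripts (grouped by M21 exons), as TPM and as counts, for pup 1 and pup 2. The b form of Slc12a5 made 53.1% of TPM and 70.8% of counts in pup 1, and the exon 4 skipping model of Wnk1 made 28.7% of TPM and 3.10% of counts.

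Wnk3 was spread over 4 transcripts with at least 10% of its TPM on average. The non-coding Wnk3-202, of 609 bases, held 34.4% and 37.1% of the TPM from 24.5 and 42.8 counts. The non-coding Wnk3-203 held 24.3% and 19.0%, and the coding Wnk3-205 and Wnk3-206 held 19.8% and 14.4%, and 21.6% and 29.6%. No base of either coding transcript was outside the other models. Antisense exons of A230072E10Rik, at 0.68 and 0.27 TPM, cover 4.94% of the exonic bases of Wnk3, and the strand setting of the counting is not given in the sources used here.

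The kinases that act directly on the cotransporters differed in level. Stk39 (SPAK; chromosome 2, 68210445 to 68472268, minus strand) was at 33.2 TPM (30.9 to 38.9) and 36.8 (35.0 to 41.1), from 1620 and 2933 counts. Oxsr1 (OSR1; chromosome 9, 119238432 to 119322427, minus strand) was at 11.2 TPM (10.14 to 12.3) and 9.29 (8.54 to 10.13), from 757 and 968 counts. Stk39 was 2.95 and 3.96 times Oxsr1 (3.46 ± 0.714), and 2.56 and 3.65 times when protein-coding transcripts alone were counted. The coding transcript Stk39-201 held 71.0% and 75.6% of the TPM of its gene, with the retained intron model Stk39-202 at 15.9% and 18.4%. Oxsr1-201 held 81.8% and 82.2%, with the retained intron model Oxsr1-203 at 14.6% and 13.98%.

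Counting only protein-coding transcripts changed the order of the members. Slc12a5 (32.2 ± 0.834 TPM) and Stk39 (25.7 ± 3.03) stayed highest, followed by Slc12a9 at 20.0 ± 1.29, Slc12a4 at 11.2 ± 0.0495 and Oxsr1 at 8.41 ± 1.11. Wnk1 moved from the third place to the sixth, at 9.04 TPM in pup 1 and 6.96 in pup 2, ahead of Slc12a2 at 6.16 ± 0.997. Wnk3 (3.54 ± 0.276) then stood below Slc12a2, and Slc12a7 remained the lowest. The place of Wnk1 ahead of Slc12a2 rested on its shorter coding models. Its long coding forms alone summed to 5.1 TPM in pup 1 and 4.44 in pup 2, below Slc12a2 at 5.45 and 6.86.

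Between the pups, 0 of 9 members differed 2-fold. Log2 ratios are pup 2 over pup 1 of CPM after TMM scaling, which sets the bulk of genes near 0. At a mean count of at least 100, 0.472% of 13545 genes were at least 2-fold apart, 0.413% higher and 0.0591% lower in pup 2. The median size of the log2 ratio was 0.09 over the members and 0.11 over all genes tested. Slc12a2 had the largest ratio among the members at 0.40, a fold of 1.32, and 5.14% of genes tested were as far from 0. Stk39 followed at 0.30, with 10.4% of genes as far, and Oxsr1 was lowest at -0.20, with 24.3% as far. Slc12a5 was at -0.03.

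Signs of the smaller ratios depended on the scale. Spike-in totals, of 335 and 603 counts, shift every log2 ratio by -0.29. On that scale Slc12a2 stayed positive at 0.11, Stk39 was at 0.01, and Wnk1, Wnk3 and Slc12a4 changed from 0.13, 0.06 and 0.06 to -0.16, -0.23 and -0.23. By the ratio of TPM Slc12a4 also changed sign, to -0.03. The TPM intervals of the pups were apart and higher in pup 2 for 1 member, Slc12a2, against 7.72% of genes at that count. They were apart and lower in pup 2 for 2 members, Slc12a9 and Oxsr1, against 15.9%. The other 6 overlapped, and over all genes at that count 23.6% were apart in either direction. For Slc12a9 the log2 ratio was -0.19 by TPM but -0.04 after TMM scaling, with 78.6% of genes tested as far from 0.

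**Figure D4:**
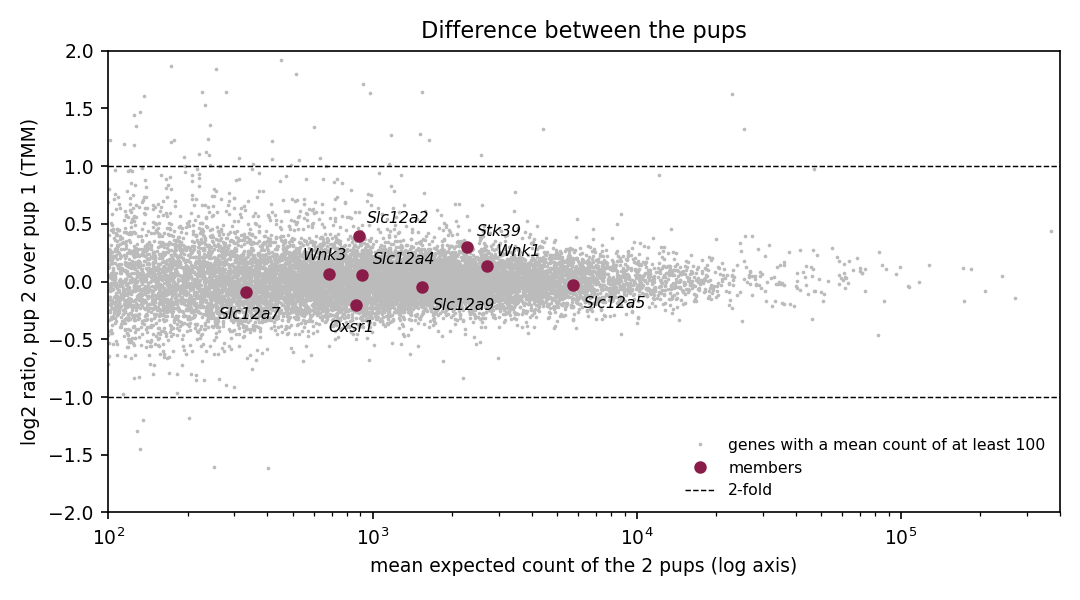
Log2 ratio of pup 2 over pup 1 (TMM scaling) against the mean expected count (log axis) for genes whose count averaged 100 or more (grey) and the 9 members (purple); dashed lines mark 2-fold. The members lie between -0.20 and 0.40, inside the 2-fold lines, and 5.14% of genes tested were as far from 0 as Slc12a2. Outside the plotted range of 2 log2 units on either side fall 13 genes.

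Cell type markers also differed between the pups. The summed TPM of 5 myelinating oligodendrocyte genes was 386 in pup 1 and 697 in pup 2, higher for 5 of 5 genes. That of 7 sensory ganglion neuron genes was 162 and 245, higher for 7 of 7; among these, Avil (0.70 and 8.55), named after its values were seen, differed far more than the sum. The summed TPM of 3 meningeal fibroblast genes was 267 and 336, higher for 3 of 3. The 5 neuron genes were lower in pup 2 in 5 of 5 cases, at 0.868 of the sum in pup 1. By TPM the typical gene was also lower in pup 2, with a median log2 ratio of -0.06 over genes tested. After TMM scaling the 5 neuron genes ran from -0.05 (Rbfox3) to -0.19 (Tubb3), against a median size of 0.11 over genes tested. The 3 red cell and 4 endothelial genes were also lower in sum, at 0.774 and 0.826 of pup 1. Sums for oligodendrocyte precursors (179 and 189), microglia (102 and 101.5) and skeletal muscle (46.0 and 47.1) differed less. The part of these markers in the Slc12a2 and Stk39 differences was not tested.

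Among 37 further genes of chloride transport and its control, 33 were detected in both libraries, against 63.8% of protein-coding genes. The TPM intervals of 3 were apart and higher in pup 2 (Cab39, Sgk1 and Ppp1cb), and those of 5 apart and lower (Wnk2, Klhl3, Epb41l1, Arhgef7 and Ntrk2); these 8 are named after their values were seen. Over all genes at a mean count of at least 100 the shares were 7.72% and 15.9%, and 23.6% in either direction, so the 8 genes do not set these lists apart. Of the 33 with a mean count of at least 100, 0 were 2-fold apart, and the median size of their log2 ratio was 0.09.

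Among SLC12 genes outside the 9 members, Slc12a8, which has been described as a nicotinamide mononucleotide carrier, passed the detection level in pup 2 alone (TPM of 0.64 and 1.02). The kidney cotransporters had few counts: Slc12a1 (NKCC2) had 8 and 4 counts, and Slc12a3 (NCC) 2 and 3.

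All 12 of 12 listed genes of the WNK cascade were detected, against 63.8% of protein-coding genes. Catalytic subunits of protein phosphatase 1, which removes phosphate from the cotransporters, led the list, with Ppp1ca at 461 and 452 TPM and Ppp1cb at 58.6 and 62.4. Cab39 (MO25), the scaffold that activates SPAK and OSR1, was at 37.2 and 40.3. Klhl3, the adaptor that marks WNK kinases for degradation, was lowest at 4.42 and 3.37. The other WNK genes, named here after their values were seen, were Wnk2 at 16.7 and 13.1 TPM and Wnk4 at 4.87 and 5.25. By TPM over all transcripts the order in both pups was Wnk1, Wnk2, Wnk3 and Wnk4. Over protein-coding transcripts both neighbouring pairs changed places: Wnk2 (16.7 and 13.1) stood above Wnk1 (9.04 and 6.96), and Wnk4 (4.87 and 4.97) above Wnk3 (3.35 and 3.74).

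Of the partners and regulators of KCC2, 11 of 12 were detected, against 63.8% of protein-coding genes. Ckb, the brain creatine kinase that binds KCC2, was at 2065 and 2029 TPM. Usf1 came next with the values given above, followed by Pacsin1, an endocytic adaptor that binds KCC2, at 80.2 and 78.2. Egr4, a transcription factor of the Slc12a5 promoter, was at 0.11 and 0.24 TPM, from 4 and 13 counts.

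Other routes for anions were all detected, 9 of 9, against 63.8% of protein-coding genes. Slc4a3, a chloride and bicarbonate exchanger, was at 87.0 and 78.0 TPM, Clcn3, an endosomal chloride and proton exchanger, at 62.5 and 59.0, and Lrrc8a, the obligatory subunit of volume-regulated anion channels, at 50.5 and 49.1. Lrrc8c, another channel subunit, was lowest at 8.74 and 9.46. Each of the 9 stood above Slc12a2 in both pups.

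**Figure D5:**
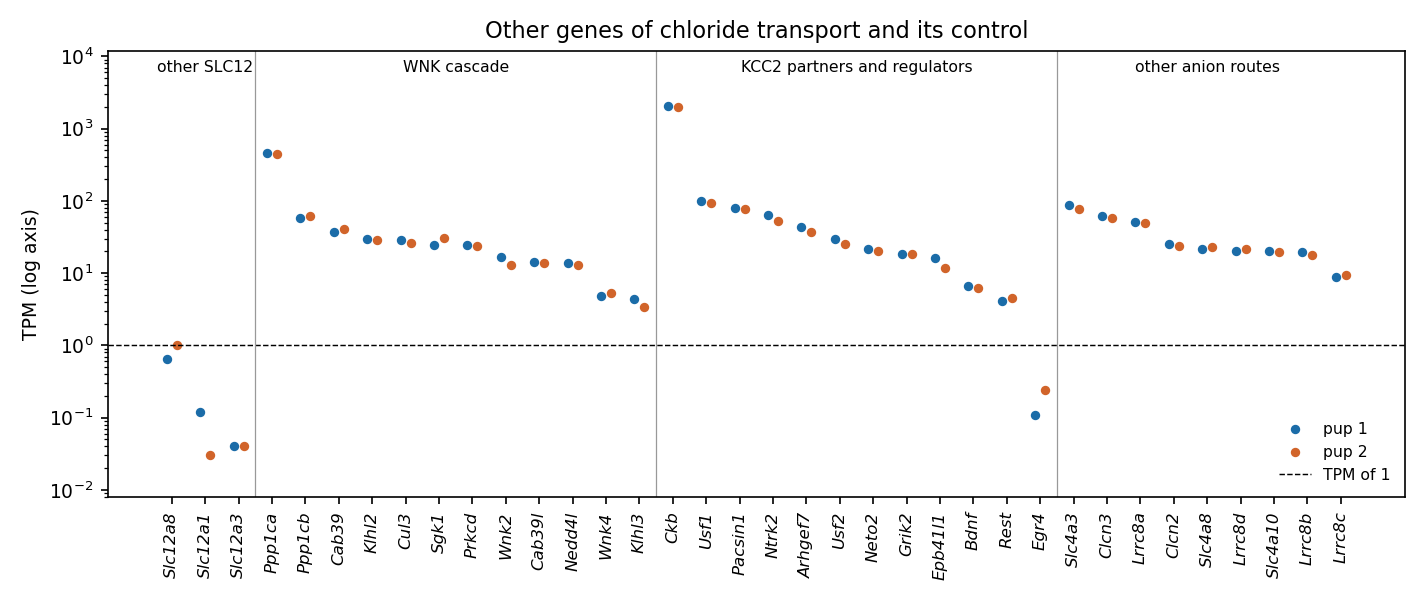
TPM (log axis) of 36 of the further genes in pup 1 and pup 2, ordered by mean within 4 functional lists; the dashed line marks a TPM of 1. Slc12a1, Slc12a3 and Egr4 lie below the line in both pups and Slc12a8 on either side of it.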

How the data were processed

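Total RNA-seq of 2 neural tubes was taken from the deposited gene and transcript tables, 1 of each per pup. Per the file headers, the columns are expected counts (estimates, not always whole), TPM, the percent share of each transcript in its gene and interval bounds of TPM, under column names that RSEM writes. The authors' TPM are scaled over all rows, spike-ins included. The deposited notes name mm10 and GENCODE M4. Not given in the sources used here are the aligner, program versions, interval level and strand setting. In the transcript tables, 99 bases separate length from effective length.

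Symbols, biotypes and exons came from GENCODE M21 on GRCm38, the build of mm10 (42462 of 43346 gene rows matched). A few transcript lengths differ between M4 and M21. Promoters came from RefSeq. Rows of 26248 tRNAs and 96 spike-ins were left out of library sizes.

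Ratios were formed within each library. Counts were rounded and TMM-scaled with edgeR 4.0.16 in R 4.3.3 (genes averaging 10 counts or more, prior count 2). DESeq2 1.42.0 gave alternative size factors. The steps were tested on simulated data. Figures were drawn with matplotlib 3.10.9, and the remaining work was done with pandas 2.3.3, numpy 2.4.6 and scipy 1.17.1 under Python 3.11.15. With 1 group there is no test, and the SD covers 2 littermates.

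The members, the lists and the alternatives were chosen with earlier results of these data known. Named genes were all members, transcripts with a mean share of at least 10%, and per pathway list the 3 highest, the lowest and any gene detected in exactly 1 library or 2-fold apart. Marker lists are given by their sums. A few values that these rules take are not reported here.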

Additional observations from a re-analysis of the deposited data

How the results depend on the processing

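With 2 pups of 1 litter, no difference has a replicate check, and levels of Slc12a5, Wnk1 and Wnk3 rest on how reads were divided among short, non-coding and retained intron models. Of 32 values recomputed under other settings, 10 ratios or shares moved by more than the SD of the 2 pups. Leaving out either pup cannot move a ratio or share that far, so those settings could not count as moved. Direction was judged for the ratios alone, and in each setting the importer stayed below Slc12a5 and below the summed exporters. Single exporters were not all above it: Slc12a2 was 1.70 and 2.40 times Slc12a7 by TPM. By expected counts it was 0.835 of Slc12a4 in pup 1 and 1.06 in pup 2. The ratio of Slc12a2 to Slc12a5, 0.104 by TPM, was 0.150 by expected counts and 0.192 over protein-coding transcripts. The ratio to the summed exporters, 0.0822, was 0.123 by counts, 0.133 over protein-coding transcripts and 0.0621 with Slc12a9 in the sum. Counts per length of the longest complete coding transcript, chosen after seeing the data, gave 0.138 and 0.105. Among protein-coding transcripts alone, Slc12a5-201 made 100% of Slc12a5 by construction, being its single coding model, and the leading Wnk1 transcript became Wnk1-223 at 23.8%, in place of Wnk1-217 at 29.9%. Posterior mean TPM put Wnk1-217 at 26.9%; the cause was not tested. At a TPM of at least 5, 8 of 9 members were detected, without Slc12a7.

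Leaving out each pup in turn gave ranges of 0.0884 to 0.120 and 0.0700 to 0.0943 for the ratios, 53.1% to 55.2% for Slc12a5-201, 28.7% to 31.05% for Wnk1-217, and 9 to 9 members detected. No member was 2-fold apart under DESeq2 size factors, the ratio of TPM, no filter on counts, a prior count of 0.5 or spike-in totals. No paired analysis was possible because the series holds 1 group.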
